A study of Homo sapiens with 2 samples.

Results

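The IL6-family receptor, JAK-STAT and SOCS genes described here are 10 members, IL6ST, IL6R, LIFR, OSMR, JAK1, JAK2, STAT3, SOCS2, SOCS3 and CISH, chosen by symbol among the 62571 rows of a deposited expression table. Each had 1 row of its own. The table held PIM3_KO, HuH6 human hepatoblastoma cells in which the PIM3 gene was knocked out with CRISPR/Cas9, and HuH6_WT, the unedited HuH6 cells. HuH6 is a cell line from a childhood liver tumour, and PIM3 is a serine/threonine kinase that favours survival. Both groups were untreated and grown in the same serum-containing medium, and whether the edited cells were 1 clone or a pool is not given in the sources used here. With a single library for each group there are no replicates to check a difference against, and no p-values are given. Loss of PIM3 and anything else that sets the edited cells apart from HuH6_WT cannot be told apart.

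Cytokines of the IL6 family signal through gp130, the shared receptor chain that IL6ST encodes. A ligand-specific chain (IL6R, LIFR or OSMR) joins gp130 in the receptor complex. Kinases of the JAK family sit on these chains and phosphorylate STAT3, which enters the nucleus. In hepatocytes STAT3 turns on acute phase protein genes. SOCS proteins and CISH are made in response to STATs and damp the receptors and JAKs, which closes a feedback loop. PIM kinase genes are themselves known STAT targets. STAT dimers bind palindromic sites of the form TTCNNNGAA.

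Levels are in FPKM (fragments per kilobase per 1e6 fragments), a measure per length, so that genes within a library can be compared. From what 1 read was worth, each library had been scaled to a total of 22.2 M reads (PIM3_KO) or 28.4 M reads (HuH6_WT). Reads per gene are estimates that rest on 1 annotated transcript, and the 95% intervals drawn from them cover counting error only. PIM3 itself measured 14.0 FPKM in PIM3_KO and 34.2 FPKM in HuH6_WT. PIM1 measured 60.5 FPKM in PIM3_KO and 80.0 FPKM in HuH6_WT, and PIM2 measured 9.09 FPKM in PIM3_KO and 6.82 FPKM in HuH6_WT. Of 10 hepatocyte and hepatoblast markers 9 averaged 1 FPKM or more, with GPC3 at 607 FPKM in PIM3_KO and 694 FPKM in HuH6_WT, while DLK1 was listed at 0 in both. Of these 9 measured markers 4 were at least 2-fold higher in PIM3_KO and 0 lower. Over all 11253 genes that averaged 1 FPKM or more, 6.89% were at least 2-fold higher and 4.59% lower, which is the background for each marker count here. AFP measured 70.1 FPKM in PIM3_KO and 1.19 FPKM in HuH6_WT, TTR 2232 FPKM in PIM3_KO and 270 FPKM in HuH6_WT, ALB 9.18 FPKM in PIM3_KO and 0.520 FPKM in HuH6_WT, and APOA1 12109 FPKM in PIM3_KO and 5201 FPKM in HuH6_WT. The endothelial markers CDH5 and KDR were listed at 0 in both libraries, and 2 of 7 endothelial markers averaged 1 FPKM or more, EGFL7 at 45.6 FPKM in PIM3_KO and 15.4 FPKM in HuH6_WT and TIE1 at 6.02 FPKM in PIM3_KO and 11.8 FPKM in HuH6_WT. Of 4 measured fibroblast and stellate markers, 1 was at least 2-fold lower in PIM3_KO and 0 higher. This was ACTA2, at 10.5 FPKM in PIM3_KO and 87.4 FPKM in HuH6_WT. Of 4 measured cholangiocyte markers, 1 was at least 2-fold higher in PIM3_KO and 0 lower. This was CFTR, at 4.75 FPKM in PIM3_KO and 0.0559 FPKM in HuH6_WT. KRT7, which averaged under 1 FPKM, went the other way, at 0 in PIM3_KO and 0.716 FPKM in HuH6_WT. Summed FPKM of the leukocyte list was 278 in PIM3_KO and 113 in HuH6_WT, of which CD3D alone gave 198 FPKM in PIM3_KO and 32.7 FPKM in HuH6_WT. CD3E, the partner chain of CD3D, measured 0.248 FPKM in PIM3_KO and 0 in HuH6_WT. LAPTM5 gave 63.9 FPKM in PIM3_KO and 72.3 FPKM in HuH6_WT. Of 5 measured leukocyte markers 4 had positive ratios and 1, LAPTM5, a negative one. In bulk RNA, fewer cells of a type and less RNA per cell cannot be told apart.

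Promoter windows are shown for CISH, IL6ST and LIFR because the pathway acts through STAT sites, and these windows range from the richest in TTCNNNGAA among the members to one without it. They are RefSeq windows on GRCh38.p14, from 250 bases before to 50 after a transcription start, on the minus strand and 5′ to 3′, with TTCNNNGAA in capitals (the motif is its own reverse complement, so 1 search covers both strands). The CISH window is chr3:50611725-50612024, the IL6ST window is chr5:55994914-55995213 and the LIFR window, the nearest of 3 to the annotated transcript start, is chr5:38595356-38595655.
CISH: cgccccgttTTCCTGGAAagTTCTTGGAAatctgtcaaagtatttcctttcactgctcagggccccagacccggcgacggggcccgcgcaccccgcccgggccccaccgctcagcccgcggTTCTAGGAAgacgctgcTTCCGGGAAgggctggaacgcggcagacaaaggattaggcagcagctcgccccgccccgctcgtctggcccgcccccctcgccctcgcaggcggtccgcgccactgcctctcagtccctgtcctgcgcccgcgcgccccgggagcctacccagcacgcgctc
IL6ST: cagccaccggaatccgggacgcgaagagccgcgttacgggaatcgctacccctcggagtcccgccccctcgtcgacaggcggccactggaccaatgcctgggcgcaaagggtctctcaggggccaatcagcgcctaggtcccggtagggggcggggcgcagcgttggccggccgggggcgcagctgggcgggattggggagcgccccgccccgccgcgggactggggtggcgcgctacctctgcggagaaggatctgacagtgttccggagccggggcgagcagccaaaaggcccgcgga
LIFR: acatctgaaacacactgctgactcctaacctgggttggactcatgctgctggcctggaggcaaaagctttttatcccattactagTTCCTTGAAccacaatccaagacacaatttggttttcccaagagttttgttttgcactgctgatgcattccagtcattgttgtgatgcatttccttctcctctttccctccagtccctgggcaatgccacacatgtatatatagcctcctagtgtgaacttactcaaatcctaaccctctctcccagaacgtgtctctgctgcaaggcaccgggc
CISH held 4 matches, which begin at positions -241, -230, -129 and -112 from the start. The LIFR window held 1 match, and the IL6ST window held none of these letters. Of 34943 promoter windows of the same length, 7.66% held at least 1 match and 7 windows held 4 or more. Among the 17 windows of the 9 members with an entry, 3 held a match, those of CISH and 2 of LIFR. SOCS2 has no entry. The start sites of the 2 SOCS3 windows lie 410 and 848 bases from the annotated SOCS3 start, and neither window covers it. A match is a description of the letters only, and CISH, with 4 matches, differed little between the libraries, as given further on.

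IL6ST and SOCS3 were at least 2-fold lower in PIM3_KO, and 0 of the 8 members that averaged 1 FPKM or more over both libraries passed 2-fold on the higher side. Over all 11253 genes that passed the same filter, 4.59% were at least 2-fold lower, 6.89% at least 2-fold higher and 11.5% either. SOCS2 was next to the threshold on the higher side. The fold threshold was applied to the log2 ratio of FPKM + 1, PIM3_KO over HuH6_WT. The median log2 ratio was -0.14 for the 8 members and 0.01 for all genes tested, of which 49% had negative ratios. OSMR and JAK2 stayed under the filter in both libraries and are described apart.

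The sum of FPKM was 1086211 in PIM3_KO and 787250 in HuH6_WT, and rescaling each to the same total (TPM) moved the median log2 ratio of all genes by -0.41. On that scale the median of all genes tested was -0.40, and 7 of the 8 members had negative ratios. JAK1 joined IL6ST and SOCS3 past 2-fold lower, where 14.4% of all genes tested were at least 2-fold lower and 2.87% higher. Ranks within a library and shares within a family do not depend on this choice and are given beside the levels.

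**Figure D1:**
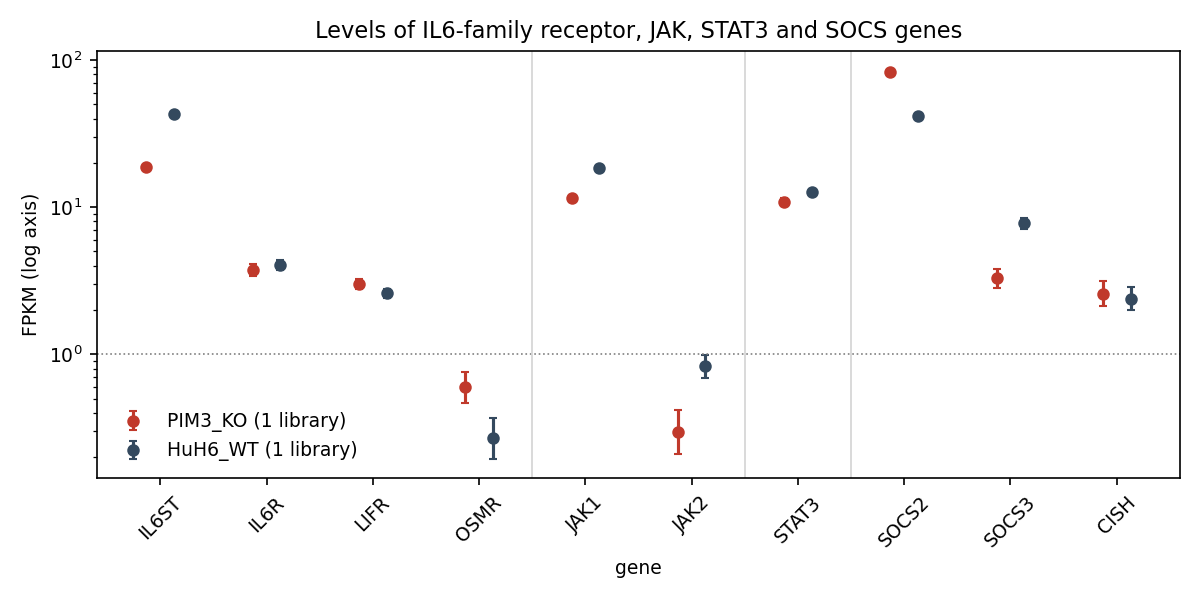
FPKM of each member on a log axis in the 1 PIM3_KO library (red) and the 1 HuH6_WT library (dark), with exact 95% Poisson intervals of the estimated reads; the dotted line marks 1 FPKM. IL6ST and SOCS3 lie lower and SOCS2 higher in PIM3_KO, while the intervals of IL6R and CISH overlap between libraries.

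Among the receptors, the shared chain was lower in PIM3_KO, IL6R and LIFR were near equality and OSMR was low in both libraries. IL6ST (ENSG00000134352.19, chromosome 5, 55935095 to 55994993, GRCh38) measured 18.8 FPKM in PIM3_KO and 42.9 FPKM in HuH6_WT, a log2 ratio of -1.15. The PIM3_KO value was 43.8% of the HuH6_WT value, and the exact 95% interval ran from 42.2% to 45.5% on about 3704 and 10786 estimated reads. Among protein-coding genes IL6ST ranked at percentile 73.5 in PIM3_KO and 85.2 in HuH6_WT, and 3.13% of the tested genes had a lower ratio. The direction was the same under TPM, at -1.60, and after correction for transcript length, at -0.91, which is short of 2-fold. IL6ST overlaps AC008914.1, AC016596.1 and AC008892.1 on the opposite strand, and their part in its reads was not tested. The 4 tested genes within 500 kb of IL6ST had log2 ratios from -3.99 to 1.47 with a median of -0.06: SLC38A9 at -0.58, PLPP1 at 0.46, the snRNA gene RNU6-299P at -3.99 and the pseudogene RPL17P22 at 1.47.

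IL6R, the IL6-binding chain (ENSG00000160712.12, chromosome 1, 154405193 to 154469450), measured 3.75 FPKM in PIM3_KO and 4.05 FPKM in HuH6_WT. Its counting interval, 82.1% to 104% of HuH6_WT, included equality, and its log2 ratio of -0.09 became -0.46 under TPM and 0.14 after correction for transcript length. LIFR, the chain for LIF (ENSG00000113594.9, chromosome 5, 38474963 to 38608354), measured 3.02 FPKM in PIM3_KO and 2.60 FPKM in HuH6_WT, a log2 ratio of 0.16 that turned to -0.18 under TPM; its counting interval was 105% to 129% of HuH6_WT. OSMR, the oncostatin M chain (ENSG00000145623.12, chromosome 5, 38845858 to 38945596), measured 0.600 FPKM in PIM3_KO and 0.268 FPKM in HuH6_WT. Its fold of 2.24 had a counting interval of 1.48 to 3.33 on about 71 and 41 estimated reads. OSMR and the gene RICTOR overlap on opposite strands, and it is not given in the sources used here whether counting used strand. The same holds for IL6R with IL6R-AS1 and PSMD8P1, and for LIFR with LIFR-AS1. LIFR also overlaps MIR3650 on its own strand.

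The make-up of the receptor set therefore differed between the libraries. IL6ST made up 71.8% of the summed FPKM of the 4 receptors in PIM3_KO and 86.1% in HuH6_WT. IL6R made up 14.3% in PIM3_KO and 8.12% in HuH6_WT, and LIFR 11.5% in PIM3_KO and 5.21% in HuH6_WT. The IL6ST level was 5.01 times that of IL6R in PIM3_KO and 10.6 times in HuH6_WT. Against LIFR it was 6.22 times in PIM3_KO and 16.5 times in HuH6_WT. The shared chain remained the most abundant of the 4 in each library.

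The kinases JAK1 and JAK2 were both lower in PIM3_KO. JAK1, the kinase that gp130 chiefly uses (ENSG00000162434.11, chromosome 1, 64833229 to 64966504), measured 11.5 FPKM in PIM3_KO and 18.6 FPKM in HuH6_WT, a log2 ratio of -0.65. The PIM3_KO value was 61.8% of the HuH6_WT value, with an interval of 57.7% to 66.2%. All 4 tested genes within 500 kb of JAK1 also had negative ratios, with a median of -0.60: RAVER2 at -0.58, CACHD1 at -0.67, AK4 at -0.24 and DNAJC6 at -0.63. Whether a regional shift has a part in the JAK1 value was not tested. JAK1 overlaps RAVER2, AL606517.1 and AL606517.2 on the opposite strand, so its reads may be mixed with theirs if the counting ignored strand.

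JAK2, the kinase of many hormone and growth factor receptors (ENSG00000096968.13, chromosome 9, 4984390 to 5128183), measured 0.297 FPKM in PIM3_KO and 0.832 FPKM in HuH6_WT. That was 35.7% of HuH6_WT, with an interval of 23.9% to 53.3% on about 34 and 120 estimated reads. Its log2 ratio of -0.50 understates this fold, because the added 1 FPKM is larger than either level, and with a pseudocount of 0.1 it was -1.23. The JAK2 locus also contains pseudogenes on its own strand, so its reads are less certain. Of the other JAKs, TYK2 measured 86.3 FPKM in PIM3_KO and 45.4 FPKM in HuH6_WT, a log2 ratio of 0.91, and JAK3 measured 0.327 FPKM in PIM3_KO and 0.0270 FPKM in HuH6_WT. TYK2, which also serves interferon receptors, was the most abundant of the 4 in each library. JAK1 made up 11.7% of the summed FPKM of the 4 JAK genes in PIM3_KO and 28.7% in HuH6_WT.

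**Figure D2:**
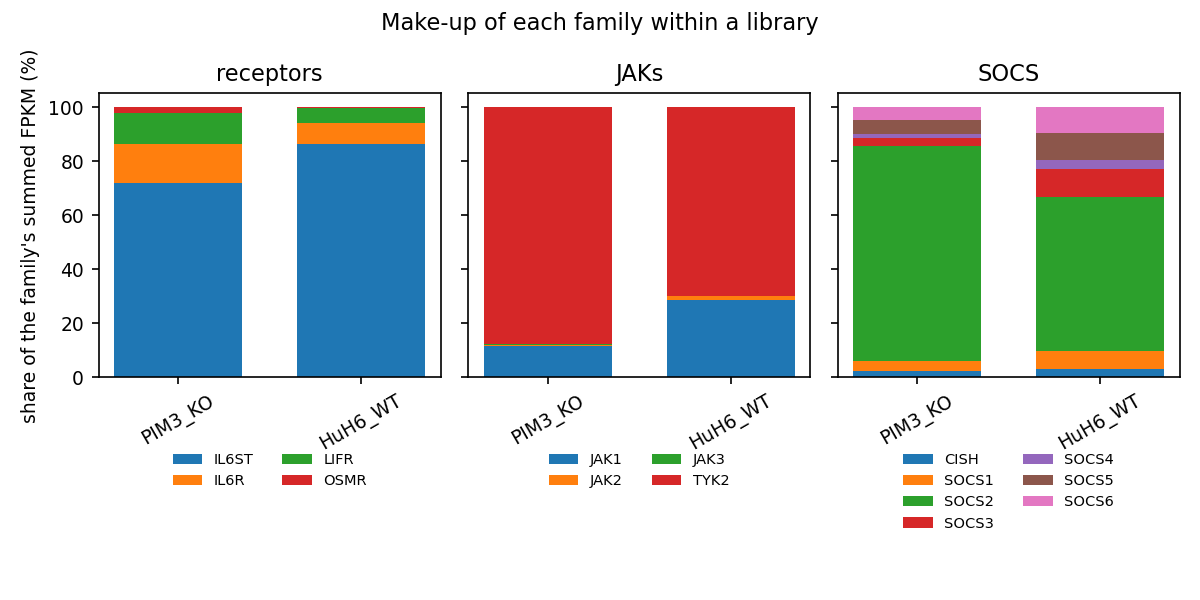
Share of each gene in the summed FPKM of its family (y axis, percent) in PIM3_KO (left bar of each pair) and HuH6_WT (right bar), for 4 receptors, 4 JAKs and 7 SOCS genes. IL6ST and JAK1 take smaller shares in PIM3_KO and SOCS2 takes a larger one.

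STAT3, the transcription factor that gp130 activates (ENSG00000168610.14, chromosome 17, 42313324 to 42388568), was close in level in both libraries. It measured 10.9 FPKM in PIM3_KO and 12.6 FPKM in HuH6_WT, or 86.2% of HuH6_WT with an interval of 80.0% to 92.9%. Its log2 ratio was -0.20, -0.63 under TPM and 0.02 after correction for transcript length, so the direction rests on the scaling. STAT3 ranked at percentile 65.5 of protein-coding genes in PIM3_KO and 66.4 in HuH6_WT. RNA levels say nothing of STAT3 phosphorylation, which was not measured here.

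The 4 other STATs described here that averaged 1 FPKM or more were short of 2-fold. STAT6, which acts downstream of IL4, measured 18.6 FPKM in PIM3_KO and 23.2 FPKM in HuH6_WT. STAT5B, a main growth hormone STAT of liver, measured 5.10 FPKM in PIM3_KO and 4.89 FPKM in HuH6_WT, and STAT2 measured 10.5 FPKM in PIM3_KO and 10.6 FPKM in HuH6_WT. STAT5A, which lies beside STAT3 on chromosome 17, measured 1.40 FPKM in PIM3_KO and 2.45 FPKM in HuH6_WT. STAT4 was listed at 0 in PIM3_KO and measured 0.0298 FPKM in HuH6_WT.

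The feedback inhibitors differed in direction. SOCS2, best known as a brake on growth hormone signalling (ENSG00000120833.13, chromosome 12, 93569814 to 93583487), measured 83.1 FPKM in PIM3_KO and 41.9 FPKM in HuH6_WT, a log2 ratio of 0.97. The fold was 1.98, with a counting interval of 1.90 to 2.07 on about 4956 and 3186 estimated reads. SOCS2 ranked at percentile 90.9 of protein-coding genes in PIM3_KO and 85.0 in HuH6_WT. It stayed higher in PIM3_KO under TPM, at 0.52. The 7 tested genes within 500 kb had a median of 0.01, with MRPL42 at -0.04 and CRADD at 0.30. SOCS2-AS1, which overlaps it on the opposite strand, measured 5.70 FPKM in PIM3_KO and 3.19 FPKM in HuH6_WT, and reads of the pair may be mixed if the counting ignored strand.

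SOCS3, the inhibitor that binds gp130 itself (ENSG00000184557.4, chromosome 17, 78356778 to 78360077), went the other way. It measured 3.28 FPKM in PIM3_KO and 7.75 FPKM in HuH6_WT, a log2 ratio of -1.03. That was 42.3% of HuH6_WT, with an interval of 35.7% to 50.1% on about 185 and 557 estimated reads. SOCS3 ranked at percentile 50.0 of protein-coding genes in PIM3_KO and 58.7 in HuH6_WT. The ratio was -1.43 under TPM, and with a pseudocount of 5 it was -0.62, short of 2-fold. No annotated gene overlaps SOCS3, but its neighbours PGS1 at -0.92 and CYTH1 at -0.75 were lower as well, against BIRC5 at 0.22 and AFMID at -0.32 on the other side. All 9 tested genes within 500 kb had a median of 0.07. Whether these neighbours bear on the SOCS3 value was not tested.

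CISH, an inhibitor induced by STAT5 (ENSG00000114737.15, chromosome 3, 50606490 to 50611831), measured 2.58 FPKM in PIM3_KO and 2.39 FPKM in HuH6_WT. Its interval of 82.7% to 141% of HuH6_WT, from about 106 and 125 estimated reads, included equality. The log2 ratio was 0.08, and -0.26 under TPM. CISH and MAPKAPK3 overlap on opposite strands, and MAPKAPK3 measured 21.3 FPKM in PIM3_KO and 30.7 FPKM in HuH6_WT, well above CISH.

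SOCS2 was thus 25.3 times as abundant as SOCS3 in PIM3_KO and 5.41 times in HuH6_WT. It made up 79.5% of the summed FPKM of 7 SOCS genes in PIM3_KO and 56.8% in HuH6_WT, whereas SOCS3 made up 3.14% in PIM3_KO and 10.5% in HuH6_WT. All 4 other SOCS genes measured had negative ratios short of 2-fold, with a median of -0.40, where 49% of all genes tested had negative ratios. SOCS5 measured 5.35 FPKM in PIM3_KO and 7.52 FPKM in HuH6_WT, and SOCS6 measured 5.16 FPKM in PIM3_KO and 7.04 FPKM in HuH6_WT. SOCS1, a direct inhibitor of JAK kinases, measured 3.60 FPKM in PIM3_KO and 4.82 FPKM in HuH6_WT, and SOCS4 measured 1.40 FPKM in PIM3_KO and 2.34 FPKM in HuH6_WT.

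**Figure D3:**
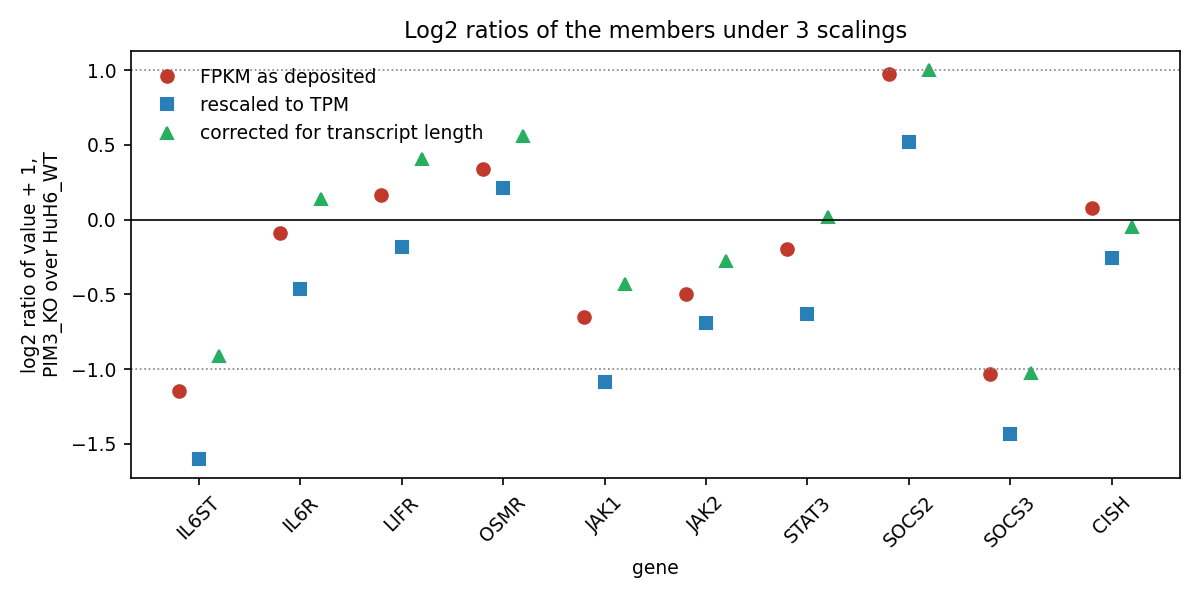
Log2 ratio of each member, PIM3_KO over HuH6_WT (y axis), from FPKM as deposited (circles), after rescaling to TPM (squares) and after lowess correction for transcript length (triangles); dotted lines mark 2-fold. IL6ST, JAK1, JAK2 and SOCS3 are below 0 and OSMR and SOCS2 above 0 on all 3 scales, while IL6R, LIFR, STAT3 and CISH change sign between scales.

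Ordered by level, the members ran in PIM3_KO from SOCS2 through IL6ST, JAK1, STAT3, IL6R, SOCS3, LIFR, CISH and OSMR down to JAK2. In HuH6_WT the order was IL6ST, SOCS2, JAK1, STAT3, SOCS3, IL6R, LIFR, CISH, JAK2 and OSMR. Neighbours whose counting intervals overlapped were JAK1 and STAT3, IL6R and SOCS3, SOCS3 and LIFR, and LIFR and CISH in PIM3_KO. In HuH6_WT they were IL6ST and SOCS2, and LIFR and CISH. The SOCS2 level was 4.42 times that of IL6ST in PIM3_KO and 0.976 times in HuH6_WT.

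Members with long transcripts sat where all genes had lower ratios. The reference transcripts of the 10 members had a median length of 5166 bp, against 2840 bp for the genes tested. When the tested genes were split by length into 5 bins of like size, the median log2 ratio was -0.24 in the bin of the longest transcripts (5156 to 34526 bp) and 0.44 in the bin of the shortest. IL6ST has a transcript of 9057 bp, and the length correction left it at -0.91, short of 2-fold. JAK1, at 5047 bp, was left at -0.43. SOCS3, at 2734 bp, stayed at -1.03 and SOCS2, at 2881 bp, at 1.00, just under the threshold. How far length has a part in these values was not tested.

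**Figure D4:**
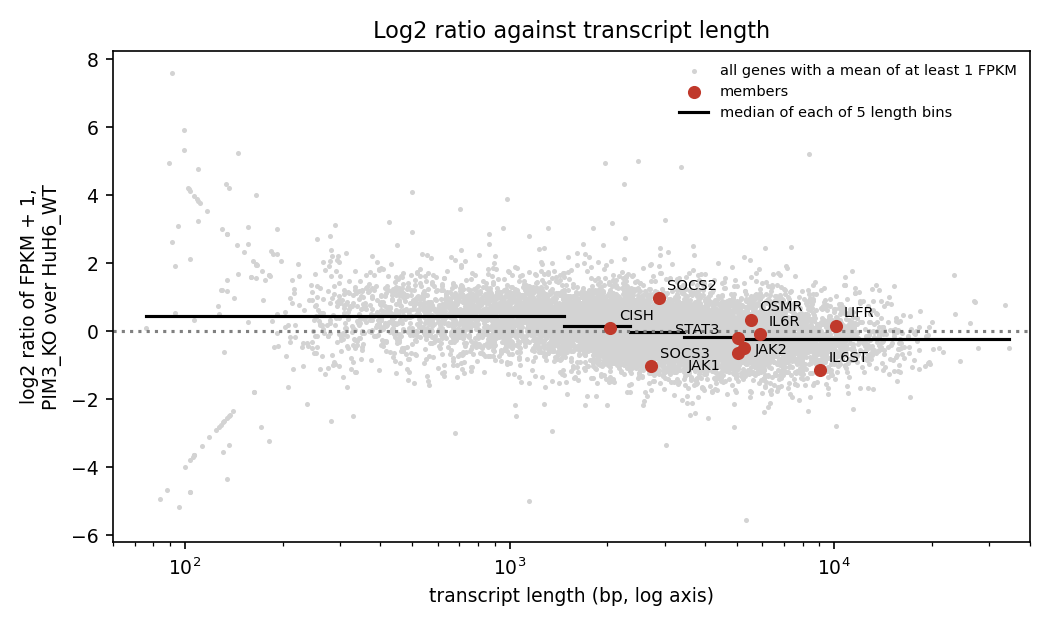
Log2 ratio of FPKM + 1, PIM3_KO over HuH6_WT, against transcript length on a log axis for all genes tested (grey) and the 10 members (red); black bars are medians of 5 length bins. The bars step down from 0.44 to -0.24 with length, and IL6ST lies below and SOCS2 above the bar at their lengths.

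By likeness of pattern, the distance between log2 FPKM + 1 in the 2 libraries, the nearest protein-coding genes to IL6ST were POLG at 18.5 FPKM in PIM3_KO and 40.0 FPKM in HuH6_WT, and EPHB4 at 19.4 FPKM in PIM3_KO and 39.7 FPKM in HuH6_WT. Nearest to SOCS3 were LLGL1 and POM121C, at distances of 0.013 and 0.018. Nearest to SOCS2 were NT5C and MMAB, at distances of 0.028 and 0.046. With only 2 libraries such likeness describes level and ratio alone.

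Ligand genes were mostly low. Of 7 IL6-family ligand genes described here with a row of their own, 4 averaged 1 FPKM or more and none was past 2-fold. LIF, the LIFR ligand, measured 2.88 FPKM in PIM3_KO and 5.20 FPKM in HuH6_WT, and IL6 measured 1.33 FPKM in PIM3_KO and 0.856 FPKM in HuH6_WT from about 39 and 32 estimated reads. EBI3, the shared IL27 and IL35 subunit and the highest of them, measured 15.5 FPKM in PIM3_KO and 15.0 FPKM in HuH6_WT. CTF1, cardiotrophin, measured 2.31 FPKM in PIM3_KO and 3.38 FPKM in HuH6_WT, and OSM was listed at 0 in both libraries.

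Among the pathway genes listed outside the members, 61 averaged 1 FPKM or more. Of these, 10 passed 2-fold on the higher side and 2 on the lower side in PIM3_KO, or 19.7% against the 11.5% of all genes. The 19.7% counts PIM3, the edited gene itself, and the lists were chosen with earlier results of these data known. Under TPM 7 of the 61 passed on the higher side and 10 on the lower side. Their median log2 ratio was -0.23. Most of the higher genes were acute phase proteins: 7 of 10 measured ones passed 2-fold, where 6.89% of all genes tested did. They were C3, FGA, FGB, FGG, HPX, ORM1 and ORM2, with ORM1 at 84.5 FPKM in PIM3_KO and 17.1 FPKM in HuH6_WT. Under TPM 5 of the 10 passed, against 2.87% of all genes tested, with FGG at 0.75 and HPX at 0.81. After correction for transcript length HPX was at 0.89, short of 2-fold. Hepatocyte markers were also higher in PIM3_KO, with 4 of 9 measured past 2-fold at log2 ratios of 5.02 for AFP, 3.04 for TTR, 2.74 for ALB and 1.22 for APOA1, and their part in the acute phase count was not tested. ORM1 and ORM2 are near-identical copies whose reads can be split wrongly. The others past 2-fold higher were IL4R (18.8 FPKM in PIM3_KO and 7.82 FPKM in HuH6_WT), a receptor chain for IL4 and IL13, the AP-1 family gene BATF3 (log2 ratio 3.90) and IGF1, a growth hormone and STAT5 target gene of liver. Under TPM the IL4R log2 ratio was 0.74, short of 2-fold. IGF1 measured 150 FPKM in PIM3_KO and 25.9 FPKM in HuH6_WT. The growth hormone receptor gene GHR measured 0.0764 FPKM in PIM3_KO and 0.0152 FPKM in HuH6_WT, about 8 and 2 estimated reads. The 2 lower genes were PIM3 and GAB1, an adaptor of gp130 and growth factor receptors, at 3.17 FPKM in PIM3_KO and 8.79 FPKM in HuH6_WT.

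Inhibitors and adaptors of the pathway otherwise differed little. Of 13 measured, 11 had negative ratios, where 49% of all genes tested did. The median of the 13 was -0.36, or -0.80 under TPM, against 0.01 and -0.40 for all genes tested. PTPN2, a phosphatase of JAK1 and STATs, measured 145 FPKM in PIM3_KO and 161 FPKM in HuH6_WT, and GRB2, an adaptor toward ERK, measured 66.1 FPKM in PIM3_KO and 46.2 FPKM in HuH6_WT. Of 14 measured nuclear genes listed as STAT3-responsive, 9 had negative ratios and BATF3 alone passed 2-fold. That is near the share over all genes tested, of which 6.89% were at least 2-fold higher. Under TPM 1 of the 14 passed on the higher side and 2 on the lower side, against 2.87% and 14.4% of all genes tested. FOS measured 252 FPKM in PIM3_KO and 491 FPKM in HuH6_WT, and CEBPD measured 20.1 FPKM in PIM3_KO and 11.0 FPKM in HuH6_WT. BCL6 measured 7.89 FPKM in PIM3_KO and 16.6 FPKM in HuH6_WT. With 1 FPKM added to each, the BCL6 log2 ratio was -0.98, short of 2-fold, though the plain values are past it. Of 6 measured cytokine receptors outside the family, 4 had negative ratios, among them the interferon receptor IFNAR1 at 11.4 FPKM in PIM3_KO and 18.1 FPKM in HuH6_WT. The lowest ratio of the 6 was that of IFNLR1, at 1.10 FPKM in PIM3_KO and 3.20 FPKM in HuH6_WT. Its log2 ratio of -0.999 was just short of 2-fold with the added 1 FPKM.

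**Figure D5:**
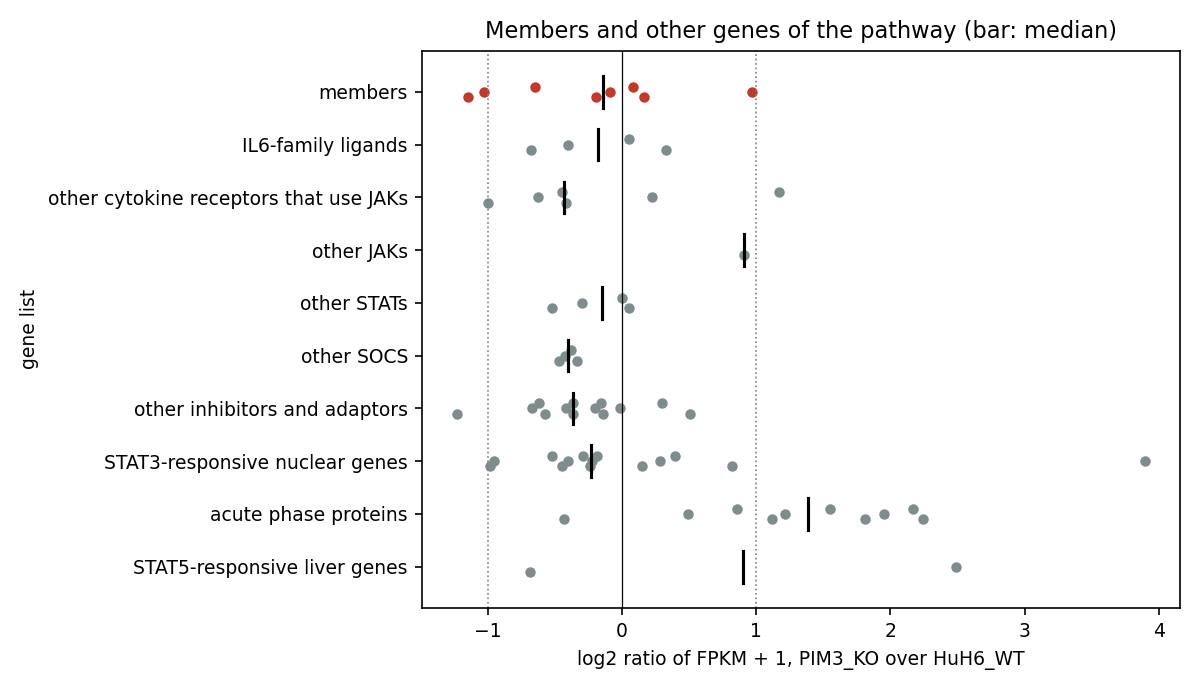
Log2 ratio of FPKM + 1, PIM3_KO over HuH6_WT (x axis), of the 8 measured members (red) and of other pathway genes that averaged 1 FPKM or more (grey), by list; black bars are medians and dotted lines mark 2-fold. Acute phase genes lie mostly to the right, with a median of 1.38, while the members spread to both sides of 0.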

How the data were processed

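Poly(A) RNA of 1 library per group was read as single-end 75 bp reads from directional libraries, per the labels' protocols. Tools named in the submitters' processing notes are Cufflinks 2.2.1, STAR 2.7.3a and bcl2fastq 2.18.0.12, with build GRCh38. The authors deposited FPKM values, per the file headers. Annotation release and strand setting: not given in the sources used here.

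Of 62571 rows, those of the 53139 symbols found in only 1 row entered the analysis. The log2 ratio of FPKM + 1, PIM3_KO over HuH6_WT, was computed with pandas 2.3.3, and the 11253 genes whose 2 libraries averaged 1 FPKM or more were counted past 2-fold. The value of 1 read came from single-exon genes of 600 to 5000 bp, of which 96.5% in PIM3_KO and 96.4% in HuH6_WT lay within 0.05 of whole reads. Estimated reads used transcript length less 200 bp from GENCODE release 29, and folds got exact binomial (Clopper-Pearson) 95% intervals. No count test was run. Alternatives were pseudocounts of 0.1 and 5, no filter, a mean of at least 5 FPKM, TPM, median centring, lowess on length (fraction 0.3) and summed rows. The code was tested on simulated data. Named genes were the members, list genes past 2-fold, otherwise up to 4 a list by level, PIM kinases, up to 2 neighbours a side within 500 kb and the nearest genes by pattern. Named after their values were seen were STAT4, IL6, OSM, GHR, BCL6, CEBPD, IFNLR1, the cell type markers and the joined loci. Some genes of the lists are not reported here. The members and lists were chosen with earlier results of these data known.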

Additional observations from a re-analysis of the deposited data

How the results depend on the processing

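No member at least 2-fold apart changed direction under the 8 alternatives. Of 80 recomputed member ratios, 63 moved by less than the half-width of their counting interval and 17 by more. Many of the 63 were fixed in advance and do not show stability. No filter, a mean of at least 5 FPKM and summed rows cannot move the ratio of a member that has 1 row. Median centring moves every ratio by the same 0.01. The signs of IL6R, LIFR, STAT3 and CISH depended on the scaling. The count of members at least 2-fold lower was 1 with a pseudocount of 5 (IL6ST) and 1 after the length correction (SOCS3), instead of 2. The count of pathway genes at least 2-fold lower was 4 with a pseudocount of 0.1, 1 with 5 and 10 under TPM, instead of 2. Over all genes, instead of 775 higher and 516 lower, 812 were lower with a pseudocount of 0.1, 399 higher and 172 lower with 5, and 323 higher and 1622 lower under TPM. No paired analysis was possible because each group had 1 library. On a 2 kb transcript, 3 reads amount to 0.0749 FPKM in PIM3_KO and 0.0588 FPKM in HuH6_WT. In HuH6_WT JAK3 and GHR lie under that level, on about 4 and 2 estimated reads. JAK2 and OSMR lie above it in both libraries, on about 34 and 71 estimated reads in PIM3_KO and 120 and 41 in HuH6_WT.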

Other observations

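Of 100 pathway genes listed outside the members, 16 stood in rows that join several symbols and were left out of the counts, so their values are those of a locus and not of 1 gene. The row of LEPR, the leptin receptor, joined with LEPROT measured 13.9 FPKM in PIM3_KO and 38.2 FPKM in HuH6_WT, a log2 ratio of -1.40. The row of HIF1A, the hypoxia factor, joined with SNAPC1 measured 26.8 FPKM in PIM3_KO and 48.7 FPKM in HuH6_WT. The row of the acute phase gene SERPINA3 joined with SERPINA4, SERPINA5 and AL049839.2 measured 9.80 FPKM in PIM3_KO and 29.0 FPKM in HuH6_WT, a log2 ratio of -1.47, opposite in sign to 9 of the 10 measured acute phase genes. The row of CLCF1, a gp130 ligand, joined with POLD4 and AP003419.1 measured 61.7 FPKM in PIM3_KO and 32.5 FPKM in HuH6_WT, and that of IL11RA, the IL11 receptor chain, joined with GALT and AL162231.3 measured 20.2 FPKM in PIM3_KO and 14.3 FPKM in HuH6_WT.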
